A study of Mus musculus with 2 samples.

Results

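The genes described here encode proteins that bind and splice RNA in developing neurons. They are Rbfox1, Rbfox2, Rbfox3, Nova1, Nova2, Elavl3, Elavl4, Ptbp1, Ptbp2 and Srrm4, 10 of the 55416 features counted, chosen by symbol. They were followed from progenitor nuclei to neuron nuclei, by type of neuron and by library. The counts come from nuclei of whole fetal mouse brain, from 1 wildtype sample and 1 sample in which Cav1, the gene of the membrane protein caveolin 1, was knocked out, each as 1 library. Nuclei were prepared from frozen tissue and captured on the 10x Genomics 3′ system of version 3.1, in which each RNA molecule is counted once by its unique molecular identifier (UMI). The labels give the age of both samples as fetal; the gestational day, the strain and the number of fetuses behind a library are not given in the sources used here. With 1 library per genotype no difference has a replicate check, and no test was made. All intervals below are exact 95% intervals that cover counting error only.

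As background, splicing factors of the polypyrimidine tract-binding family act at the passage from progenitor to neuron. Ptbp1 represses neuronal exons in progenitors and other cells, and its paralogue Ptbp2 takes its place as neurons form. Srrm4 then activates neuronal microexons, the Rbfox proteins bind GCAUG motifs, the Nova proteins bind YCAY clusters, and the neuronal Elavl (Hu) proteins bind U-rich RNA and act on its splicing and stability. Rbfox3 is the antigen NeuN, by which neurons are commonly stained.

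The Ptbp1 to Ptbp2 step is encoded in Ptbp2 itself, and its exon is shown because the levels of both genes are reported below. Exon 10 of the canonical Ptbp2 transcript lies on the minus strand at chr3:119518261-119518294 of GRCm39, is 34 bases long and is known to be skipped under Ptbp1. Its length leaves a remainder of 1 on division by 3. Of the annotated transcripts that span it, 9 hold the exon and 5 skip it, and 4 of those 5 are annotated as targets of nonsense-mediated decay. The sequence below runs 5′ to 3′ over chr3:119518241-119518414, with the exon in capitals, 120 intron bases before it and 20 after it.
Ptbp2 exon 10: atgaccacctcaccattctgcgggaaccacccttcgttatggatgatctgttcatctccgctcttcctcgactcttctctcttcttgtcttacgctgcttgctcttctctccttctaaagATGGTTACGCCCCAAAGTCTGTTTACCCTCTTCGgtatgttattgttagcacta
Of the 120 bases before the exon, 86 were pyrimidines, and they held the letters TCTT at 6 places, counted on this strand with overlaps allowed. UMIs counted from the 3′ end do not show which exons were used, so the skipping of this exon was not measured here.

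A pair of promoters is shown for Srrm4 and Elavl4, whose levels were both high in intermediate progenitors below. Rbfox3, the other gene that was high there, has a listed promoter with no match to the letters searched. The sequences are RefSeq's, on GRCm38.p6, a different build from the gene positions given elsewhere, and cover the 250 bases before the annotated start on the minus strand. Capitals mark CAGATG or its reverse complement CATCTG, an E-box form bound by proneural factors. The Srrm4 window is chr5:116591818-116592067 and the Elavl4 window is chr4:110287512-110287761, 1 of the 4 Elavl4 promoters listed, of which 3 hold the letters.
Srrm4: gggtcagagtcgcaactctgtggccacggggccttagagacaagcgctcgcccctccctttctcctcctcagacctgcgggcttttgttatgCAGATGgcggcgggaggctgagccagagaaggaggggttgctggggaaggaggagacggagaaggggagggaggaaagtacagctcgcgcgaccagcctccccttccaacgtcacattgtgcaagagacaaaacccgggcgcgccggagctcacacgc
Elavl4: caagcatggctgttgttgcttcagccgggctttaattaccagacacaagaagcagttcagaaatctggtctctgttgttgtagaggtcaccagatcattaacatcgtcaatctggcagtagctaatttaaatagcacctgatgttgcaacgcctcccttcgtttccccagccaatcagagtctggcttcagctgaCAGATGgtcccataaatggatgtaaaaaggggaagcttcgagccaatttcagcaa
The letters stood 158 bases before the Srrm4 start and 55 bases before the Elavl4 start. Of 32851 mouse promoters of this length, 14.4% held them on either strand. Promoters of 9 of the 10 genes were listed, 13 in all, and 5 of the 13 held a match. These were 1 each of Srrm4 and Ptbp1 and 3 of Elavl4, of which 2 windows overlap and share 1 site. A match is a run of letters and not a measured binding site.

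The wildtype-labelled library held 9763 barcodes and 19048835 UMIs, and the knockout-labelled library 10811 barcodes and 22504908 UMIs. Nuclei with at least 500 genes and at most 5% mitochondrial UMIs numbered 6686 and 6680, of which 6151 and 6146 were kept after doublet scoring, with median depths of 2074 and 2293 UMIs. Clustering without the 10 genes gave 28 clusters, of which 27 were named in 15 classes from marker lists. The names were rebuilt here and are not an annotation by the authors. Radial glia-like nuclei, the neural stem cells that line the ventricles, numbered 625 and 579, and neurons of all types 4062 and 3917. The raw total of Cav1 did not show the knockout, at 59 of 14744523 UMIs in the kept nuclei of the wildtype sample and 68 of 17356353 in the knockout. Endothelial cell-like nuclei held 14 and 0 Cav1 UMIs. The libraries are therefore called by their labels. The libraries shared 43 barcodes, of which 7 were among the kept nuclei of both. In each pair of values below the wildtype-labelled library comes first. CPM stands for a gene's UMIs in the summed nuclei of a class, scaled to a total of 1000000.

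Of the 10 genes, Rbfox1, Rbfox3 and Srrm4 were at least 2-fold higher in all neurons pooled than in radial glia-like nuclei in both libraries. These were 3 of 10, where 11.1% of the 14202 genes with at least 100 UMIs were that much higher. None of the 10 was at least 2-fold lower in both libraries, against 9.74% of all genes. The median log2 ratio of the 10 was 0.72 and 1.04, against -0.20 and -0.17 over all genes tested. At a limit of 1% mitochondrial UMIs 1 of the 10 was that much higher in pooled neurons, in place of 3. In that setting a cluster of 95 and 99 nuclei that passed 14 of 16 radial glia markers was left unnamed, so the radial glia class also changed. In the plot of levels by class the genes fall into different shapes, which are taken up by family below.

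**Figure D1:**
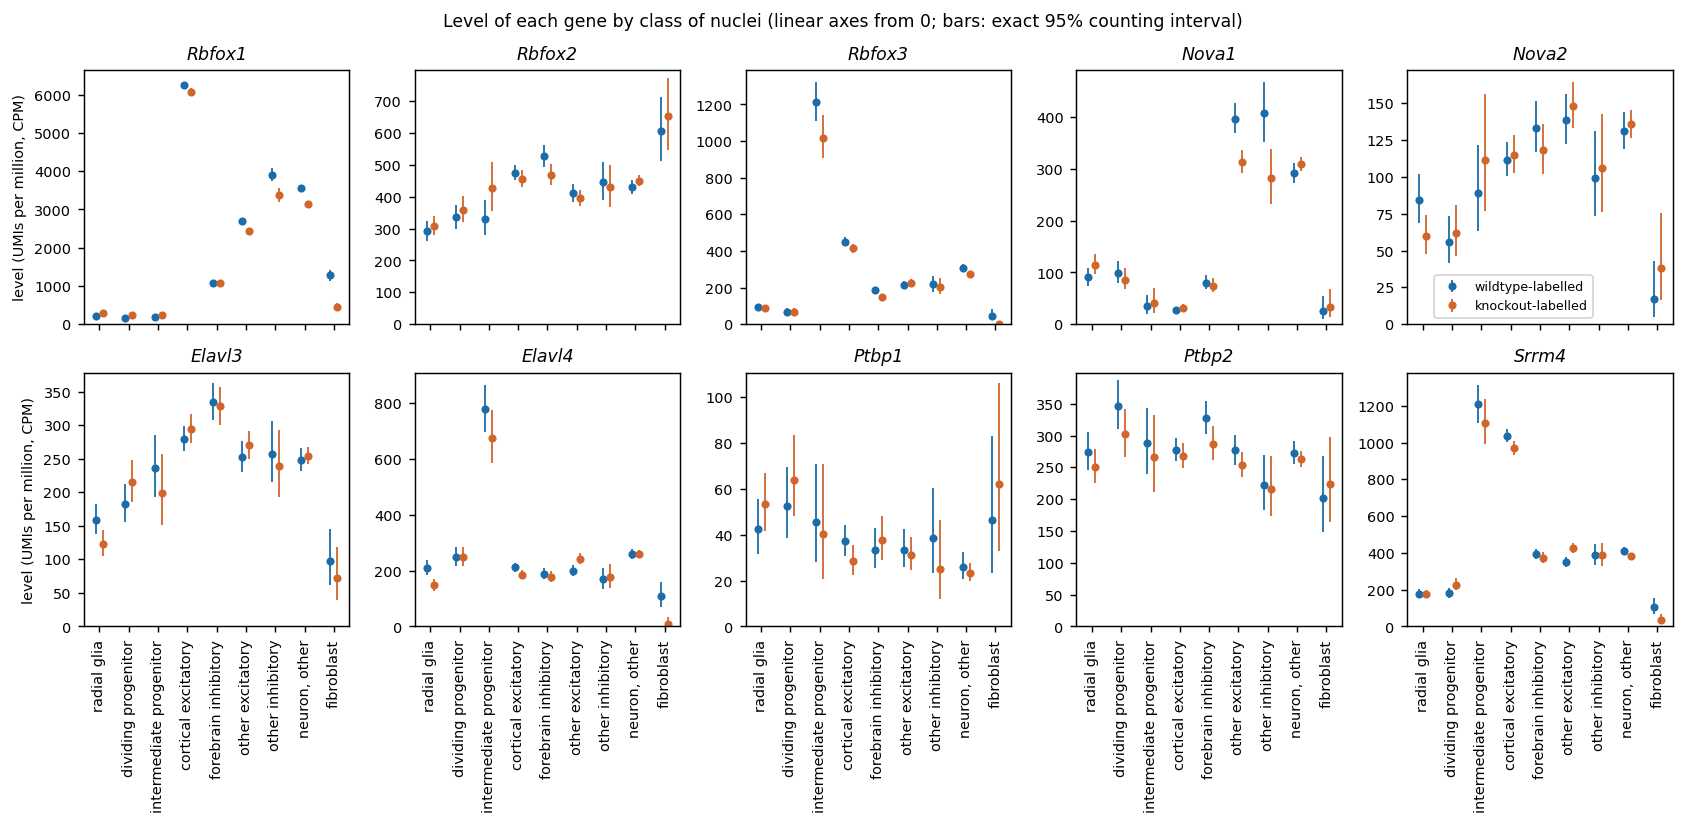
Level of each of the 10 genes (y axis, CPM, linear from 0) in 9 classes of nuclei (x axis), with the wildtype-labelled library in blue and the knockout-labelled library in orange and exact 95% counting intervals as bars. Rbfox1 is highest in cortical excitatory neurons (6243 and 6083 CPM), while Rbfox3, Elavl4 and Srrm4 stand at 1213, 778 and 1208 CPM in wildtype-labelled intermediate progenitors.

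Rbfox1, a splicing regulator of neuronal exons whose gene (ENSMUSG00000008658, chr16:5124665-7230343, plus strand, here and below on GRCm39) spans 2106 kb, had the widest change of the 10 in pooled neurons. Its level in radial glia-like nuclei was 209 CPM (184 to 236) and 279 CPM (252 to 309). In cortical excitatory neurons it was 6243 CPM (6157 to 6331) and 6083 CPM (5989 to 6178). Both libraries were low in radial glia and high in cortical neurons, with intervals far apart. The log2 ratio was 4.90 (4.73 to 5.08) and 4.45 (4.30 to 4.60), or 29.9-fold and 21.8-fold. Forebrain inhibitory neurons were the lowest of the 5 neuron types, at 1074 and 1078 CPM, or 5.15-fold and 3.86-fold above radial glia. Other inhibitory neurons, with Pax7, Otx2, Sox14 and Gata3 among their leading genes, stood at 3905 and 3368 CPM. Other excitatory neurons stood at 2710 and 2445 CPM.

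The radial glia-like value of Rbfox1 rested on few nuclei. The 5 nuclei with the most Rbfox1 UMIs, of 625 and 579, held 44.4% and 49.2% of all those of the class, and 85.9% and 81.3% of its nuclei held none. Within the class, cluster 7 had 80.5 and 60.4 CPM while cluster 20, with Rspo2 and Wnt8b among its leading genes, had 767 and 678 CPM. Against cluster 7 alone, a choice made after seeing the data, the cortical log2 ratio was 6.28 and 6.65, and with the nuclei of high doublet score kept it was 2.92 and 3.39. In that last setting the radial glia class also changed, since nuclei with the leading genes of cluster 7 fell in a cluster of 542 and 347 nuclei named intermediate progenitor-like. Direction and the 2-fold mark held in both cases, and the part of doublets in the radial glia value was not tested.

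Rbfox1 UMIs were also found in vessel and connective tissue nuclei, where neuronal genes should be low. After thinning every nucleus to 1000 UMIs, the share of nuclei with an Rbfox1 UMI was 86.9% (85.0 to 88.7) and 85.5% (83.1 to 87.7) in cortical excitatory neurons, and 90.8% and 90.1% without thinning. It was 9.08% and 11.4% in radial glia-like nuclei (14.1% and 18.7% without thinning). The types that should lack the gene gave 18.4% (7.74 to 34.3) and 4.65% (0.568 to 15.8) for endothelial cell-like nuclei, and 37.2% and 20.5% for fibroblast-like nuclei. The median depths before thinning were 2186.5 and 2392 UMIs in the cortical neurons, 1908 and 2102 in radial glia-like, 2778 and 2604.5 in endothelial cell-like and 2482 and 2704 in fibroblast-like nuclei. The radial glia shares were below the fibroblast shares in both libraries and within the endothelial intervals, so no expression in radial glia is read from them. The source of these UMIs was not tested. In the endothelial cell-like class 5 nuclei held 97.3% and 98.8% of its Rbfox1 UMIs, so the level of that class, 1878 and 967 CPM, is that of a few nuclei.

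Rbfox3, or NeuN (ENSMUSG00000025576, chr11:118380442-118802423, minus strand), did not follow Rbfox1. Radial glia-like nuclei held 91.2 CPM (75.2 to 110) and 86.4 CPM (71.5 to 104). Intermediate progenitor-like nuclei, the Eomes-positive cells between radial glia and cortical neurons, held 1213 CPM (1111 to 1320) and 1018 CPM (906 to 1140). These were the highest levels of Rbfox3 in any class, 13.3-fold and 11.8-fold above radial glia. Cortical excitatory neurons had 449 and 413 CPM and forebrain inhibitory neurons 184 and 146 CPM. At 1000 UMIs per nucleus, 61.2% (54.3 to 67.9) and 55.2% (46.0 to 64.1) of intermediate progenitor-like nuclei had an Rbfox3 UMI, against 35.2% and 31.6% of cortical neurons, and 6.16% and 6.96% of radial glia-like nuclei. In fibroblast-like nuclei, which should lack it, the share was 1.28% and then 0 of 73, where the 3 counts that a count of 0 allows would be a share of 4.11%. Without thinning these shares were 76.9% and 73.7%, 56.5% and 55.6%, 9.92% and 12.4%, and 4.94% and 0%. Intermediate progenitor-like nuclei had a median of 1987 and 2089 UMIs.

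Rbfox2 (ENSMUSG00000033565, chr15:76963189-77191303, minus strand), a family member also used outside the nervous system, changed least of the 3. It had 291 and 309 CPM in radial glia-like nuclei and 457 and 443 CPM in pooled neurons, or a log2 ratio of 0.65 (0.50 to 0.81) and 0.52 (0.38 to 0.67). Its highest level was in fibroblast-like nuclei, at 606 and 653 CPM. A lncRNA, 1700109K24Rik, overlaps Rbfox2 on the other strand, and whether the counting used the strand is not given in the sources used here.

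Per kilobase of gene, the order within the family changed with the class. Each molecule is counted once and the use of introns is not given, so whether length enters the counts was not tested. Without this scaling Rbfox1, at 209 and 279 CPM, was above Rbfox3, at 91.2 and 86.4 CPM, in radial glia-like nuclei. In radial glia-like nuclei Rbfox2 led with 1.28 and 1.35 CPM per kb, above Rbfox3 at 0.216 and 0.205 and Rbfox1 at 0.0992 and 0.133. In intermediate progenitor-like nuclei Rbfox3 led with 2.87 and 2.41 CPM per kb. In cortical excitatory neurons Rbfox1 led with 2.97 and 2.89 CPM per kb, above Rbfox2 at 2.09 and 2.003 and Rbfox3 at 1.06 and 0.979. Without regard to length, the Rbfox3 share of the family's UMIs went from 10.9% and 18.8% in cluster 7 to 70.2% and 60.8% in intermediate progenitors and to 1.71% and 2.09% in cluster 4.

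Srrm4 (ENSMUSG00000063919, chr5:116577334-116729924, minus strand), the activator of neuronal microexons, was high in both intermediate progenitors and cortical neurons. Its level was 177 CPM (154 to 202) and 175 CPM (154 to 199) in radial glia-like nuclei. In intermediate progenitor-like nuclei it was 1208 and 1109 CPM, and in cortical excitatory neurons 1037 and 971 CPM. The log2 ratio of cortical neurons over radial glia was 2.55 (2.36 to 2.76) and 2.47 (2.28 to 2.67). Forebrain inhibitory neurons, at 394 and 374 CPM, were 2.23-fold and 2.14-fold above radial glia. Srrm4os, a lncRNA on the opposite strand of the gene, had 34 and 45 UMIs in radial glia-like nuclei and 1580 and 1678 in neurons, and without strand the reads of the 2 genes cannot be told apart.

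Elavl4 (HuD; ENSMUSG00000028546, chr4:110060810-110209142, minus strand), an RNA-stabilising protein of early neurons, showed a peak that a comparison of neurons with radial glia leaves out. It had 210 CPM (185 to 237) and 147 CPM (127 to 169) in radial glia-like nuclei and 778 CPM (697 to 865) and 674 CPM (584 to 774) in intermediate progenitor-like nuclei. Cortical excitatory neurons had 212 and 186 CPM. The log2 ratio over radial glia was 1.89 and 2.20 for intermediate progenitors, but 0.02 (-0.19 to 0.23) and 0.34 (0.10 to 0.58) for cortical neurons. Among dividing progenitor-like nuclei, cluster 16, led by Dlx1, had 469 and 402 CPM and cluster 10 157 and 171 CPM. The forebrain inhibitory neurons of cluster 3, led by Lhx6, had 272 and 223 CPM, and those of cluster 5, with Drd2 among its leading genes, 115 and 134 CPM. Rbfox3 had no such peak in cluster 16, where it stood at 29.8 and 49.0 CPM.

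Intermediate progenitors thus held 3 of the 10 genes, Rbfox3, Srrm4 and Elavl4, at 2-fold or more above radial glia in both libraries, where 2.63% of 6895 genes were. Nova1, on 15 and 12 UMIs, was the 1 of 10 that was at least 2-fold lower, a share near the 8.47% of all genes. Under other settings its log2 ratio came to as little as -0.66 and -0.56, no longer past 2-fold. Dividing progenitor-like nuclei held 0 of 10 that were higher and 0 that were lower, where 3.4% and 2.27% of genes were.

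**Figure D2:**
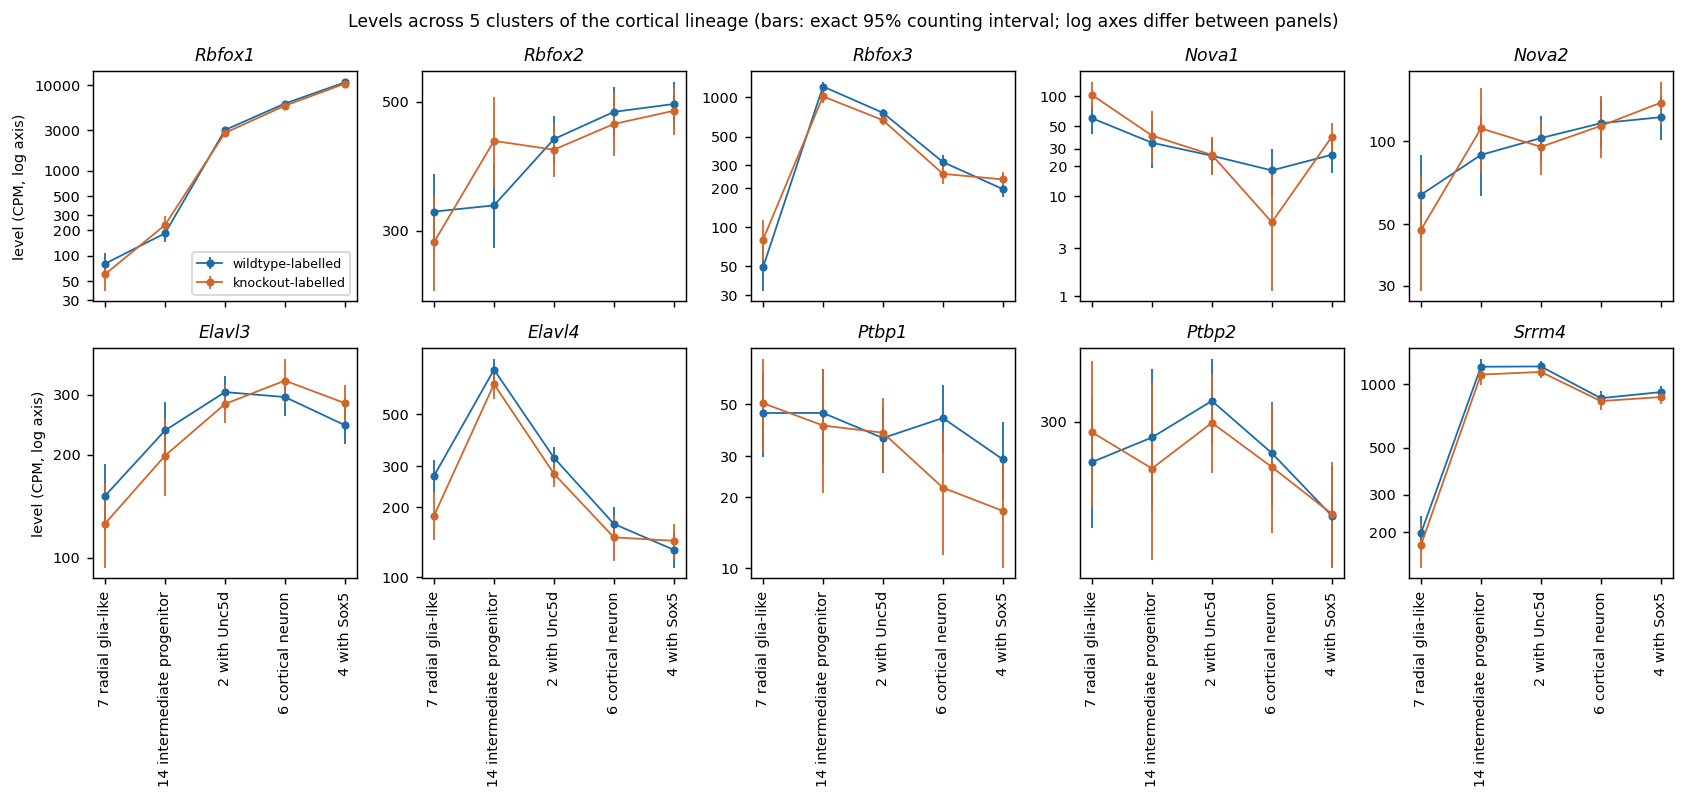
Level of each gene (y axis, CPM, log scale that differs between panels) in 5 clusters of the cortical lineage (x axis), with libraries in blue and orange and exact 95% counting intervals as bars. Rbfox1 stands at 10833 and 10473 CPM in cluster 4, and Rbfox3 and Elavl4 are highest in cluster 14. Clusters 2, 6 and 4 were put in this order after their values were seen, and cortical cluster 19 is not drawn.

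The plot of 5 cortical clusters sets radial glia-like cluster 7 and intermediate progenitor-like cluster 14 beside 3 cortical neuron clusters, cluster 2 with Unc5d among its leading genes, cluster 6, and cluster 4 with Sox5 among its leading genes. The order of the neuron clusters was set after their values were seen and is not a time course. Rbfox1 had 183 and 229 CPM in cluster 14, 2990 and 2765 in cluster 2, 6113 and 5769 in cluster 6 and 10833 and 10473 in cluster 4. Cluster 4 was 135-fold and 173-fold above cluster 7. Rbfox3 went the other way among the same neurons, from 762 and 668 CPM in cluster 2 to 197 and 234 CPM in cluster 4, with a log2 ratio of -1.95 (-2.18 to -1.72) and -1.51 (-1.75 to -1.28). Elavl4 was likewise lower, with a log2 ratio of cluster 4 over cluster 2 of -1.31 (-1.61 to -1.02) and -0.96 (-1.28 to -0.64). Srrm4 had 1212 and 1141 CPM in cluster 2 and 917 and 868.3 CPM in cluster 4. Cluster 19, the other cluster named cortical, had 3069 and 2938 CPM of Rbfox1 and 540 and 512 CPM of Rbfox3.

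Elavl3 (HuC; ENSMUSG00000003410, chr9:21926301-21963324, minus strand), the paralogue of Elavl4, showed no such peak. It had 159 CPM (138 to 183) and 123 CPM (105 to 144) in radial glia-like nuclei and 273 and 273 CPM in pooled neurons. Forebrain inhibitory neurons were highest of the neuron types, at 334 and 328 CPM, or 2.10-fold and 2.66-fold above radial glia. Elavl3 was therefore counted with Rbfox1 and Srrm4 among the 3 of 10 that were at least 2-fold higher in those neurons, where 6.58% of genes were.

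Nova1 (ENSMUSG00000021047, chr12:46741300-46866286, minus strand), an RNA-binding protein of the ventral brain and brainstem as commonly described, differed between neuron types in direction. Radial glia-like nuclei had 90.4 CPM (74.5 to 109) and 115 CPM (97.9 to 135). Cortical excitatory neurons had 26.5 CPM (21.1 to 32.7) and 31.1 CPM (24.7 to 38.6). The log2 ratio there was -1.77 (-2.19 to -1.35) and -1.89 (-2.29 to -1.49). Other excitatory neurons, with Tfap2d, Ebf2 or Prox1 among their leading genes by cluster, had 398 CPM (370 to 427) and 315 CPM (293 to 338). Theirs was 2.14 (1.85 to 2.44) and 1.45 (1.20 to 1.71). Other inhibitory neurons had Nova1 at 408 and 282 CPM. Forebrain inhibitory neurons, at 80.2 and 74.7 CPM, were on neither side of 2-fold. With nuclei classed from marker UMIs without clustering the cortical ratio came to -0.27 and -0.09, no longer past 2-fold.

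Within the other excitatory class Nova1 was not uniform. Clusters 8 (with Tfap2d and Pou4f1) and 9 (with Ebf2 and Ebf3) had 559 and 392 CPM and 628 and 394 CPM. Cluster 12, with Prox1, had 91.5 and 76.4 CPM, so that cluster 8 was 6.11-fold and 5.13-fold above it. The 5 neuron types are set side by side in the plot of changes from radial glia, in which Nova1 is the 1 gene past 2-fold in both directions within a library.

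**Figure D3:**
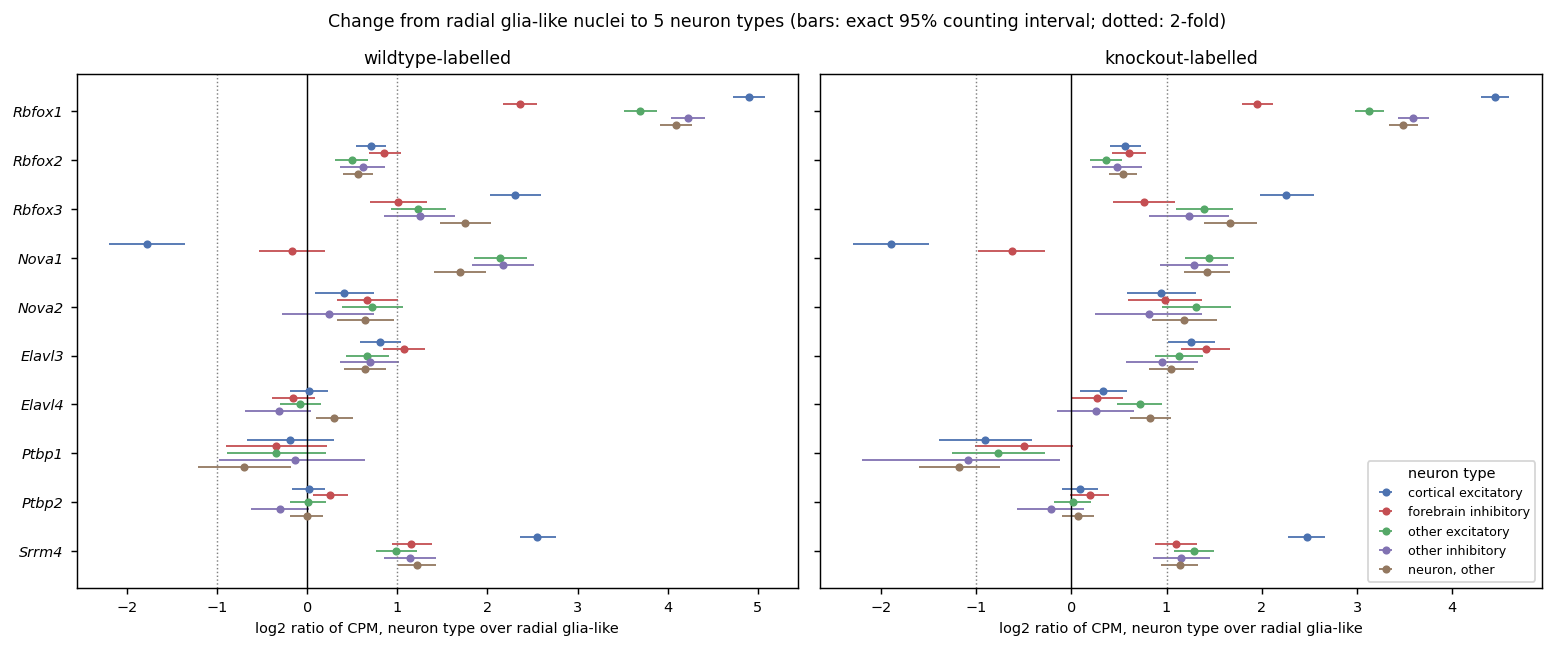
Log2 ratio of CPM of each neuron type over radial glia-like nuclei (x axis) for each gene (y axis), one panel per library, with exact 95% counting intervals as bars and dotted lines at 2-fold. Rbfox1 lies at 4.90 and 4.45 in cortical excitatory neurons, Nova1 at -1.77 and -1.89 there and at 2.14 and 1.45 in other excitatory neurons, and Ptbp2 lies near 0.

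The members past 2-fold in both libraries differed by type. In cortical excitatory neurons they were Rbfox1, Rbfox3 and Srrm4, 3 of 10 that were higher (7.97% of genes), and Nova1, 1 of 10 that was lower (10.7% of genes). In other excitatory neurons they were Rbfox1, Rbfox3 and Nova1, 3 of 10 (10.2% of genes). In other inhibitory neurons they were Rbfox1, Rbfox3, Nova1 and Srrm4, 4 of 10 (6.22% of genes), and the same 4 were higher in neuron-like clusters of no named type (11.7% of genes). None was that much lower in forebrain inhibitory, other excitatory, other inhibitory or untyped neurons, where 10.2%, 9.34%, 11.3% and 9.38% of genes were. With nuclei of high doublet score kept, and the radial glia class changed as above, 1 gene was higher in forebrain inhibitory, 2 in other inhibitory and 2 in untyped neurons. Nova1 in untyped neurons rested on cluster 0, without which its log2 ratio was -0.24 and -0.61. The untyped neurons also take in cluster 11, with 6530403H02Rik and Tafa1 among its leading genes. A cluster with these leading genes was named cortical excitatory at a minimum of 1000 genes, with high doublet scores kept, and with thinning before clustering. At 1% mitochondrial UMIs and at resolution 2 it stayed untyped.

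Nova2 (ENSMUSG00000030411, chr7:18659789-18699244, plus strand), the paralogue of Nova1 in the cortex as commonly described, had 84.0 CPM (68.7 to 102) and 59.8 CPM (47.5 to 74.4) in radial glia-like nuclei. Pooled neurons had 126 and 131 CPM, a log2 ratio of 0.58 (0.29 to 0.88) and 1.13 (0.81 to 1.47), past 2-fold in the knockout-labelled library only. It varied little between neuron types, from 99.4 CPM in wildtype-labelled other inhibitory neurons to 148 CPM in knockout-labelled other excitatory neurons. Per kilobase, cortical neurons had 2.83 and 2.91 CPM of Nova2 and 0.212 and 0.249 CPM of Nova1.

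Ptbp1 (ENSMUSG00000006498, chr10:79690261-79700605, plus strand), the repressor of neuronal exons, was the least abundant of the 10 by UMIs, with 53 and 72 in radial glia-like nuclei. Its level was 42.4 CPM (31.8 to 55.5) and 53.2 CPM (41.6 to 67.0) there and 32.7 CPM (29.3 to 36.2) and 27.8 CPM (25.0 to 30.8) in pooled neurons. The log2 ratio was -0.38 (-0.80 to 0.07) and -0.94 (-1.30 to -0.55), so in pooled neurons a decrease lay beyond counting error in the knockout-labelled library only. By type, untyped neurons had ratios of -0.70 (-1.21 to -0.18) and -1.18 (-1.59 to -0.75), beyond it in both libraries. In each of the other types the wildtype-labelled interval held 0. Plppr3, a neuronal gene that overlaps Ptbp1 on the opposite strand, had 111 and 153 UMIs in radial glia-like nuclei and 2946 and 3704 in neurons. Whether reads of Plppr3 were counted for Ptbp1 was not tested.

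Ptbp2 (ENSMUSG00000028134, chr3:119509386-119578115, minus strand), its neuronal paralogue, did not differ between radial glia-like nuclei and pooled neurons beyond counting error. It had 274 CPM (246 to 305) and 251 CPM (225 to 279) in radial glia-like nuclei and 282 CPM (272 to 292) and 263 CPM (254 to 272) in pooled neurons, so that the intervals of both classes overlapped. The log2 ratio was 0.04 (-0.12 to 0.20) and 0.07 (-0.09 to 0.23). By type, forebrain inhibitory neurons had ratios of 0.26 (0.06 to 0.45) and 0.19 (-0.01 to 0.40). These counts take in RNA with and without the exon printed above. Per kilobase, Ptbp1 stood at 4.10 and 5.14 CPM and Ptbp2 at 3.99 and 3.65 CPM in radial glia-like nuclei, and at 3.16 and 2.69 against 4.10 and 3.83 CPM in neurons. Without scaling by length Ptbp2 was above Ptbp1 in both classes and both libraries. The order in radial glia-like nuclei thus depends on the scaling, whose basis was not tested. The Ptbp1 share of the UMIs of both genes was 13.4% (10.2 to 17.1) and 17.5% (13.9 to 21.5) in radial glia-like nuclei and 10.4% (9.37 to 11.4) and 9.56% (8.65 to 10.5) in neurons. The intervals overlap in the wildtype-labelled library and are apart in the knockout-labelled library.

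**Figure D4:**
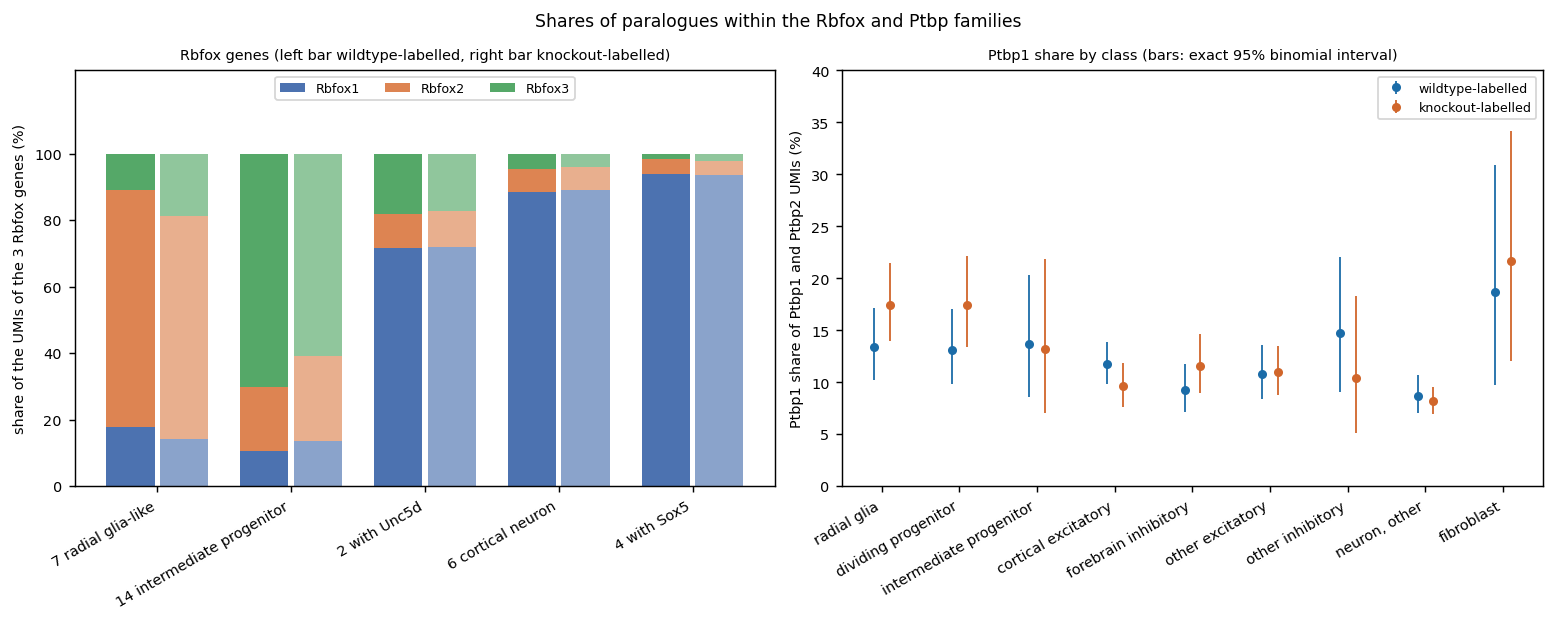
Left, share of the UMIs of the 3 Rbfox genes (y axis, %) in 5 cortical clusters, with the wildtype-labelled library as the left and the knockout-labelled library as the right bar of each pair; right, Ptbp1 share of Ptbp1 and Ptbp2 UMIs by class with exact 95% binomial intervals. The Rbfox3 share is highest in cluster 14 (70.2% and 60.8%) and the Ptbp1 share is 13.4% and 17.5% in radial glia-like nuclei.

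The libraries were next compared within each class. In pooled neurons 0 of the 10 genes were 2-fold apart, where 0.425% of genes were higher and 0.117% lower in the knockout-labelled library. In radial glia-like nuclei it was again 0 of 10, where 0.463% were higher and 0.0686% lower. In pooled neurons 6 genes had a log2 ratio, knockout-labelled over wildtype-labelled, whose interval left out 0. They were Ptbp1 at -0.23 (-0.45 to -0.02), Srrm4 at -0.20 (-0.25 to -0.15), Rbfox1 at -0.19 (-0.21 to -0.17), Rbfox3 at -0.15 (-0.22 to -0.09), Ptbp2 at -0.10 (-0.17 to -0.03) and Nova1 at 0.17 (0.09 to 0.25). The share of nuclei in each neuron type differed between the libraries, with 1332 and 977 cortical excitatory nuclei. By type, Rbfox1 was at -0.04 in cortical excitatory, -0.15 in other excitatory, -0.21 in other inhibitory and -0.18 in untyped neurons. Within other excitatory neurons, clusters 8, 9 and 12 taken alone were at 0.007 (-0.09 to 0.11), -0.34 (-0.45 to -0.24) and 0.12 (0.03 to 0.20). Clusters 0 and 11 of the untyped neurons, taken alone, were at -0.08 (-0.11 to -0.04) and -0.12 (-0.20 to -0.05). In forebrain inhibitory neurons as a class Rbfox1 did not differ beyond counting error, at 0.005 (-0.09 to 0.10). Its clusters went in opposite directions, with cluster 3 at 0.21 (0.07 to 0.34) and cluster 5 at -0.29 (-0.45 to -0.13). Cluster 18 of that class was at 0.05 (-0.18 to 0.27). Srrm4 was at -0.10 in cortical excitatory neurons and, in the opposite direction, at 0.28 (0.14 to 0.43) in other excitatory neurons. There, clusters 8, 9 and 12 taken alone had Srrm4 at 0.22 (-0.04 to 0.48), 0.55 (0.29 to 0.82) and 0.08 (-0.16 to 0.33).

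Among the types where Nova1 was high, the interval of its ratio between the libraries lay below 0 in other excitatory and other inhibitory neurons. In untyped neurons the Nova1 interval held 0. In other excitatory neurons its log2 ratio was -0.34 (-0.49 to -0.19) and in other inhibitory neurons -0.53 (-0.88 to -0.19), both within 2-fold. In untyped neurons, at 292 and 309 CPM, it was 0.08 (-0.03 to 0.20). Clusters 0 and 11 of the untyped neurons, taken alone, were at -0.10 (-0.21 to 0.02) and -0.02 (-0.66 to 0.61). They also held different numbers of nuclei, 626 and 1114 in cluster 0 and 266 and 154 in cluster 11. The clusters of the excitatory class held different numbers of nuclei, 158 and 296 in cluster 9 and 238 and 166 in cluster 12. Taken alone, clusters 8, 9 and 12 had ratios of -0.51 (-0.73 to -0.30), -0.67 (-0.89 to -0.45) and -0.26 (-0.83 to 0.30).

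In radial glia-like nuclei Elavl4 had a log2 ratio of -0.51 (-0.78 to -0.24) and Rbfox1 of 0.42 (0.19 to 0.65). Nova2 was at -0.49 (-0.93 to -0.06) and Elavl3 at -0.37 (-0.67 to -0.06), and the intervals of the other 6 genes held 0. The clusters of that class held different numbers of nuclei, 298 and 201 in cluster 7 and 109 and 181 in cluster 15. Rbfox1 was at 1.35 (0.83 to 1.90) in cluster 15 and at -0.41 (-1.20 to 0.34) in cluster 7. The Rbfox1 ratio of the whole class was -0.51 with nuclei of high doublet score kept, where no cluster of the class has the leading genes of cluster 7. It was -0.17 at a limit of 1% mitochondrial UMIs, where the class changed too, so its direction was not stable. Fibroblast-like nuclei, 81 and 73, had enough UMIs of 2 of the 10 genes, and 1 of them was past 2-fold. Rbfox1 had 303 and 96 UMIs there, a ratio of -1.48 (-1.83 to -1.14), where 1.95% of 768 genes were that much lower and 1.17% higher. The 5 nuclei with the most held 50.2% and 39.6% of these UMIs. In the same class Elavl4 had 26 and 2 UMIs and Rbfox3 11 and 0, where a count of 0 allows up to 3 UMIs.

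In the other classes compared, 0 of the genes with enough UMIs (10, but 8 in other inhibitory neurons and 7 in intermediate progenitors) were 2-fold apart between the libraries. Classes under 50 nuclei were not among them, and there Rbfox1 went in both directions. It was at -1.67 (-2.29 to -1.09) in Cajal-Retzius cell-like nuclei, on 90 and 34 UMIs. In choroid plexus epithelium-like nuclei it was at -3.30 (-4.24 to -2.49), on 168 and 13 UMIs. Oligodendrocyte precursor-like nuclei had Rbfox1 at 1.497 (0.756 to 2.324), on 17 and 117 UMIs. Microglia or macrophage-like nuclei had it at 1.355 (0.712 to 2.021), on 32 and 60 UMIs. Endothelial cell-like and mural cell-like nuclei were within 2-fold, at -0.957 and 0.085. The background for the classes compared is the share of all genes that were 2-fold higher and 2-fold lower in the knockout-labelled library. It was 0.353% and 0.126% over all nuclei, 0.167% and 0.0239% in cortical excitatory, 0.157% and 0.0629% in forebrain inhibitory and 0.526% and 0.0809% in other excitatory neurons. It was 0.11% and 0.164% in other inhibitory neurons, 0.321% and 0.0754% in untyped neurons, 0.0935% and 0.0234% in dividing progenitors and 0.191% and 0.127% in intermediate progenitors. At these shares a count of 0 among 10 genes says little.

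**Figure D5:**
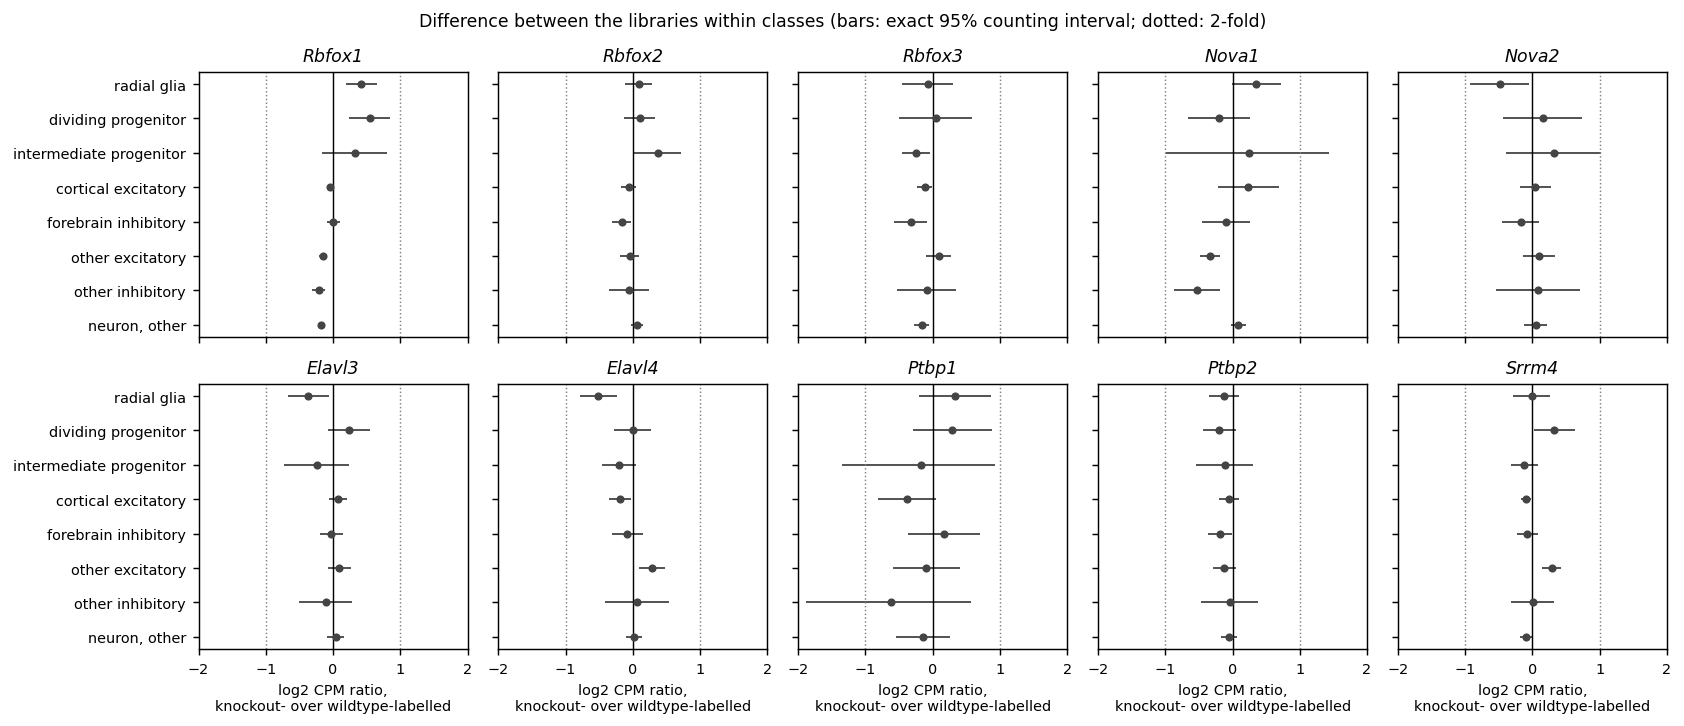
Log2 ratio of CPM, knockout-labelled over wildtype-labelled (x axis), in 8 classes of nuclei (y axis) for each gene, with exact 95% counting intervals as bars and dotted lines at 2-fold. No point lies past 2-fold; Nova1 is at -0.34 and -0.53 in other excitatory and other inhibitory neurons.

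Other RNA-binding proteins were taken from a list of 102 genes, grouped by their known use and chosen with results of these data known, so that the direction of a group is not independent evidence. Of the 102, 98 had enough UMIs, 11 were at least 2-fold higher in pooled neurons than in radial glia-like nuclei in both libraries and 6 lower, against the 11.1% and 9.74% of all genes above. The list's median log2 ratio was -0.37 and -0.34. Of the 16 neuron-biased regulators 9 were higher, with a median of 1.49 and 1.30. Khdrbs2 (SLM1), a splicing regulator of synaptic genes, had 71.2 and 107 CPM in radial glia-like nuclei and 652 and 639 CPM in neurons. Celf4, a neuronal regulator of mRNA, went from 150 and 182 CPM to 1146 and 1185 CPM. Srrm3, the paralogue of Srrm4, went from 32.0 and 38.4 CPM to 225 and 224 CPM. Mbnl2, with a log2 ratio of -1.07 and -0.93, Rbm24 with -0.51 and -0.15 and Mbnl1 with -0.17 and 0.16 were the lowest of the group.

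Of the 26 widely expressed or progenitor regulators 22 had enough UMIs, 6 were lower and 1 was higher. Qk, a regulator of glial RNA, had 1182 and 1351 CPM in radial glia and 265 and 266 CPM in neurons, at log2 ratios of -2.16 and -2.35. Msi1, the progenitor protein Musashi, had ratios of -1.70 and -1.89, and Mbnl3, with 115 UMIs in all, of -3.35 and -2.47. Lin28b, a repressor of let-7 processing, was the gene that was higher, with ratios of 2.82 and 2.16, followed within the group by Tia1 (0.16 and 0.23) and Ptbp3 (0.13 and 0.22), a paralogue of Ptbp1. Among 16 SR proteins and relatives Srsf12 alone was higher (1.68 and 1.30) and 0 were lower, and Srsf6 (-0.75 and -0.84) was lowest. Of 24 hnRNPs 0 were past 2-fold, with Pcbp4 (0.22 and 0.53) highest and Hnrnpf (-0.58 and -0.84) lowest. Of 20 other nuclear proteins 0 were past it, with Zfr2 (0.04 and 0.35) highest and Tardbp (-0.86 and -0.70) lowest.

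By the pattern over 9 classes in both libraries (18 sums, log2 of CPM plus 10), the genes most like each member were found among 6402 genes. Rbfox1 was most like Lrfn5 (Pearson r 0.97) and Arpp21 (0.96), and Rbfox3 most like Elavl2 (0.97), a further neuronal Elavl gene, and Srrm4os (0.96). Elavl4 was also most like Elavl2 (0.94) and then Lrp8 (0.94), and Nova1 like Astn2 (0.93) and Grin3a (0.93). Srrm4 was most like its opposite-strand partner Srrm4os (0.99) and Carmil3 (0.96), and Ptbp1 like Clic1 (0.92) and Hnrnpa2b1 (0.91). Elavl3 was most like Soga3 (0.97) and Frmd5 (0.96), Nova2 like Fbxl16 (0.94) and Abca3 (0.94), Rbfox2 like Lrp1 (0.89) and Rab30 (0.87), and Ptbp2 like Gm37534 (0.85) and Gm4258 (0.84). The sums share libraries and depth, and these values are descriptions of 18 points.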

How the data were processed

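Single-nucleus UMI counts of 2 libraries were used, 1 per genotype. The deposited matrices hold raw counts per gene and barcode, and per the file headers they come from version 6.1.1 of Cell Ranger, whereas the submitters' processing notes name Cell Ranger 3.0.1, STAR and GRCm39; the annotation and the use of introns and strand are not given in the sources used here. Gene positions come from GENCODE on GRCm39, which matched 98.8% of features. Nuclei with at least 500 genes and at most 5% mitochondrial UMIs were kept. Scrublet in scanpy 1.11.5 marked 0 nuclei at its own threshold, so the 8% with the highest scores per library were removed.

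Counts were scaled to 10000 per nucleus and log-transformed. From 2000 variable genes, without the members, the wider list and Cav1, 30 components, 15 neighbours and Leiden clustering (leidenalg 0.10.2, resolution 1) gave the clusters. A name needed at least 3 markers at 2-fold or more; these thresholds were set after the clusters were seen, and names are not the authors'. Cluster 1 (634 and 959 nuclei) stayed unnamed. Raw counts were summed per class and library. Level intervals are exact Poisson, and ratio and share intervals Clopper-Pearson, at 95%. Genes with at least 100 UMIs over the compared sums were tested for 2-fold; ratios were checked on simulated data.

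The members and lists were chosen with earlier results of these data known. The rule for named genes took the 10 members, the 3 highest and 3 lowest ratios in each group of the wider list, of which not all are printed, and the 2 most alike genes per member. Other settings tried were the gene and mitochondrial limits, doublet removal, resolution, thinning, classes from markers and scaling; dropping cluster 0, using cluster 7 alone as radial glia and dropping cluster 20 were added after seeing the data.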

Additional observations from a re-analysis of the deposited data

Results flagged for a closer look

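Nova1 changed in opposite directions in different excitatory neurons. The mean over both libraries of the log2 ratio over radial glia-like nuclei was 1.79 in other excitatory neurons and -1.83 in cortical excitatory neurons, a gap of 3.62 with both libraries on the same side in each type. This difference was not tested, since each genotype has 1 library. Within other excitatory neurons cluster 12 did not share the rise, and cluster 8 was 6.11-fold and 5.13-fold above it. With nuclei classed from marker UMIs the cortical values were -0.27 and -0.09 and those of other excitatory neurons 2.26 and 1.62.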

How the results depend on the processing

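Over 62 ratios past 2-fold and the alternatives that gave a value, 605 of 608 recomputed ratios kept their sign and 547 stayed past 2-fold. The exceptions in sign were Rbfox3 in wildtype-labelled other inhibitory neurons with classes from marker UMIs (-0.13), and Nova1 in untyped neurons without cluster 0, an alternative chosen after seeing the data (-0.24 and -0.61). At most 1% mitochondrial UMIs, with the radial glia class changed as above, left 2 members higher in other inhibitory, 2 in untyped and 1 in pooled neurons. Keeping the nuclei of high doublet score, which also moved nuclei like those of cluster 7 out of the radial glia class, left 1 higher in forebrain inhibitory, 2 in other inhibitory and 2 in untyped neurons. With classes from marker UMIs 0 members were lower in cortical neurons. Without cluster 0 the wider list held 3 lower genes and the knockout-labelled Ptbp1 share of pooled neurons was 10.7%. The cause was not tested in any of these. The ratio of intermediate progenitors over radial glia ranged from 1.59 to 4.62 for Rbfox3 and from 1.27 to 3.70 for Srrm4 in the wildtype-labelled library. At resolution 0.5 no radial glia-like class was found, so it gave no ratio over radial glia. No paired analysis was possible because each genotype has 1 library. Depth limits Ptbp1 most, with 53 and 72 UMIs in radial glia-like nuclei.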

Other observations

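Cluster 1, which was left unnamed, has haemoglobin and ribosomal protein genes among its leading genes and a median of 740.5 and 705 UMIs per nucleus. It had the highest Elavl3 level of any class, 442 CPM (390 to 499) and 437 CPM (391 to 488), with Rbfox1 at 227 and 202 CPM. Oligodendrocyte precursor-like nuclei, 21 and 40, had Nova1 at 439 CPM (279 to 659) and 274 CPM (191 to 381). In choroid plexus epithelium-like nuclei, 32 and 30, Rbfox1 stood at 1542 and 157 CPM on 168 and 13 UMIs. In dividing cluster 16, led by Dlx1, Rbfox1 stood at 160 and 360 CPM, a log2 ratio between the libraries of 1.17 (0.64 to 1.72), on 43 and 103 UMIs.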
